A study of Mus musculus with 2 samples.

Results

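The genes described here are 5 transcription factors known for setting skeletal muscle fibre type: Sox6, Prox1, Tbx15, Maf and Mafa. They were taken as a named list of 5 of the 21853 protein-coding genes in the annotation, and each was read over its gene body plus 50 kb on each side, 1262 kb in all. Open chromatin was mapped by DNase-seq, which sequences the ends of fragments cut by DNase I in nuclei, in gastrocnemius, the large calf muscle. The animals were male B6CASTF1/J mice, a hybrid of the B6 and CAST strains, aged 10 days. The series holds 1 group with 2 biological replicates, both from the same donor record, with 3 males named for each sample. Whether tissue of those males was pooled is not stated in the labels, so differences between the replicates show only the spread between these samples, which may be technical. There is nothing to compare across conditions, and all results describe where these genes were open, how strongly, and how the values spread between replicates and against other genes. Coordinates are mm10 with GENCODE M21 genes, and pairs of values are given for replicate 1 and then replicate 2.

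Sox6, a SoxD family factor, represses slow-fibre genes in fast fibres. Prox1, a homeodomain factor, is needed for slow-fibre properties in muscle and is also the defining regulator of lymphatic endothelium. Tbx15, a T-box factor, is expressed in fast glycolytic muscle. Maf and Mafa belong to the large Maf family, basic leucine zipper factors that promote the fast IIb myosin Myh4. Mafa is also a regulator of insulin transcription in the pancreatic beta cell, and Maf acts in macrophages. The gastrocnemius is mainly a fast muscle, and at this age the fibres are still maturing. The tissue holds other cells besides fibres, and fewer cells of a type cannot be told apart from less opening per cell.

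A peak is a stretch where cleavage exceeds the background, and its value is the deposited signal, taken here as scaled to library depth. Overlapping peaks of the libraries were joined into a site, which is shared when both libraries have a peak there. A footprint is a short stretch inside open chromatin that is protected from cleavage. The 5 windows held 104 and 135 peaks, forming 154 sites. Of these, 79 were shared, 21 were seen only in replicate 1 and 54 only in replicate 2. The shared sites made up 79.0% of the sites of replicate 1 and 59.4% of those of replicate 2, against 78.1% and 63.7% in the whole genome. Footprints numbered 253 and 371. Merged, they formed 461 stretches, of which 138, or 29.9%, were found in both replicates, where 35.5% of all merged footprints were.

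The sequences that follow are the strongest shared sites away from the genes' own starts and free of annotated exons, and they show what lies in the open chromatin around each gene. They are mm10 reference sequence, over the stretch covered by peaks of both libraries, read 5′ to 3′ on the strand of the named gene. Capitals mark the bases that lay in footprints of both replicates.
Sox6, past the end of the gene (chr7:115453441-115453600, minus strand): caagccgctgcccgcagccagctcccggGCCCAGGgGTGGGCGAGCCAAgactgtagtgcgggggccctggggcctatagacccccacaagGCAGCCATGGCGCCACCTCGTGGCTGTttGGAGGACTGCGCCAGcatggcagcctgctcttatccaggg
Sox6, before the first start (chr7:116040301-116040460, minus strand): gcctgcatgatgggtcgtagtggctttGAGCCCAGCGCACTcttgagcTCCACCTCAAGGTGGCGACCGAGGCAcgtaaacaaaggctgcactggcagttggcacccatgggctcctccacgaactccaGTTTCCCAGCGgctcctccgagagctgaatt
Sox6, inside the gene near its open starts (chr7:116033021-116033180, minus strand): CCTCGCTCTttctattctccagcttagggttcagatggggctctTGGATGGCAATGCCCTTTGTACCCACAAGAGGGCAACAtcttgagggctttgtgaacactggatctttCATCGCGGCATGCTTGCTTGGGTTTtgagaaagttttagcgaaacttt
Prox1, intron (chr1:190137981-190138160, minus strand): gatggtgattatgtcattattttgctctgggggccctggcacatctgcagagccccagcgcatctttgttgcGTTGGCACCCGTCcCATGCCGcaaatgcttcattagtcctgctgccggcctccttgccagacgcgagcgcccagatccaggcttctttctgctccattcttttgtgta
Tbx15, intron just before the open start (chr3:99253141-99253360, plus strand): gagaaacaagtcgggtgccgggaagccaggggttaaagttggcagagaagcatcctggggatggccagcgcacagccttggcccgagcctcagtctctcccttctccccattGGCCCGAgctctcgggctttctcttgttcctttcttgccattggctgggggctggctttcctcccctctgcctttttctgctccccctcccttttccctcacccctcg
Tbx15, intron further inside (chr3:99290401-99290580, plus strand): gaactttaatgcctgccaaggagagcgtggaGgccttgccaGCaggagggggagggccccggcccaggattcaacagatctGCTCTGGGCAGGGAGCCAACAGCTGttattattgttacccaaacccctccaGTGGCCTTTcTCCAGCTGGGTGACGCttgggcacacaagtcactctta
Tbx15, before the first start (chr3:99234081-99234280, plus strand): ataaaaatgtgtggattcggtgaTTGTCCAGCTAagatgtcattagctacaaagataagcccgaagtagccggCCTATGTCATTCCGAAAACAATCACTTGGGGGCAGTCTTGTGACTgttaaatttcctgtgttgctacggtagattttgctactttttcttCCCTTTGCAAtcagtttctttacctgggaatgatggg
Maf, before the first start (chr8:115709541-115709700, minus strand): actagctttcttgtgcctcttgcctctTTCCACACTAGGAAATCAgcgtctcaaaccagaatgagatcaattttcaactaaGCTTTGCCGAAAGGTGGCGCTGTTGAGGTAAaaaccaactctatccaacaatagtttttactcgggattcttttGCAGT
Mafa, before the start (chr15:75757961-75758220, minus strand): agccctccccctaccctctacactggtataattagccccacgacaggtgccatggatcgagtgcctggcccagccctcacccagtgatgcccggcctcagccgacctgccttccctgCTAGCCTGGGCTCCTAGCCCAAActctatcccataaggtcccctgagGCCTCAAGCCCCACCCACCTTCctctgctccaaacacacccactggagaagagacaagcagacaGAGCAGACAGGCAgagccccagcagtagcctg
Mafa, past the end of the gene (chr15:75727681-75727860, minus strand): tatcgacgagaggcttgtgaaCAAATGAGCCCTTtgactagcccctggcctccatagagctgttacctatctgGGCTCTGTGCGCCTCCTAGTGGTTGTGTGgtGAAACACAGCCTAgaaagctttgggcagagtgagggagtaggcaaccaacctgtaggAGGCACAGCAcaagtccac

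All 5 genes had a peak in both replicates within 500 bp of the start of a coding transcript, the definition of an open promoter used here. Of all protein-coding genes 66.0% met it in both, 67.8% in replicate 1 and 68.0% in replicate 2, and 65.4% with the basic transcript set, so the count by itself says little about the 5 genes. Their levels differed widely. The promoter of Mafa had values of 7.86 and 14.5, a geometric mean of 10.7 that exceeded 80.4% of the open promoters. Tbx15 had 3.77 and 5.86, above 44.4% of them. Maf followed with 3.46 and 5.99, above 43.4%. At Sox6 the values were 2.29 and 3.01, above 28.4%, and at Prox1 they were 1.52 and 2.58, above 22.9%. The median geometric mean of all open promoters was 5.49, so Mafa alone of the 5 lay above it. Mafa was the highest and Prox1 the lowest in each replicate.

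Whether neighbours in this order differ was judged against the replicate error of promoters. The log2 ratio of replicate 2 to replicate 1 had an SD of 0.46 over all open promoters, which gives an SD of 0.32 for the difference of 2 mean values. Mafa exceeded Tbx15 by 1.18 on the log2 scale, or 3.64 of these SDs. Tbx15 and Maf differed by 0.05, or 0.142 SD, and their order turned round in replicate 2. Maf exceeded Sox6 by 0.79, or 2.44 SDs. The Maf value, however, joins the highest peaks of different sites in the replicates. Taken singly, the sites at its starts had geometric means of 3.24 and 3.48, nearer to the 2.63 of Sox6. The size of this step thus depends on how the value was built. Sox6 exceeded Prox1 by 0.41, or 1.26 SDs, so this step is within the range that replicates commonly spread. The deposited values were whole multiples of a small step. If a step is read as 1 tag, which was inferred and not stated by the authors, the Mafa promoter had 1445 and 2472 tags. On that reading the 95% Poisson intervals there were 7.46 to 8.27 and 13.9 to 15.1, which do not overlap and cover counting error only.

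**Figure D1:**
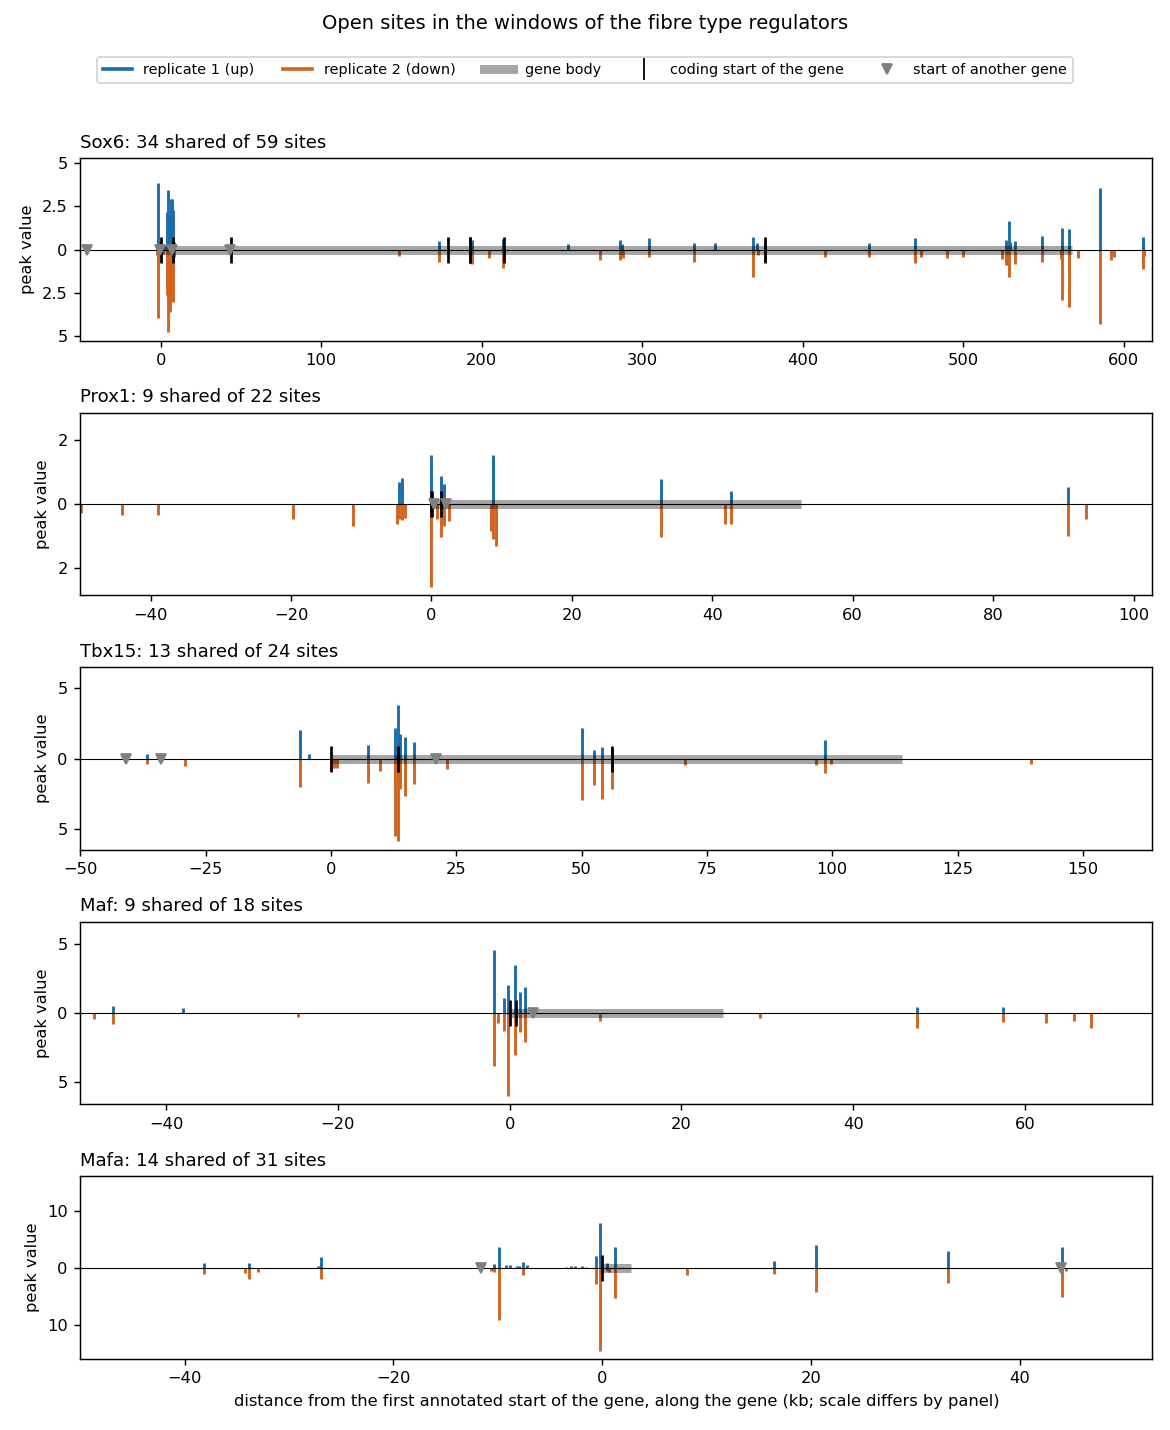
Open sites in the window of each gene, by distance from the gene's first annotated start in kb, with peak values of replicate 1 upward and of replicate 2 downward on linear axes that differ between panels. Sox6 has its values clustered in the first 10 kb and near its far end, and Mafa has the highest peak, 7.86 and 14.5 just before its start.

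The opening was not always at the first annotated start. The 5 genes have 17 distinct starts of coding transcripts, and 11 of them had a peak in both replicates, where 60.2% of all coding starts did. Sox6 has 8 coding starts, and 3 were open in both. The first, that of Sox6-204 at chr7:116038744, had only weak peaks within reach, the highest 0.413 and 0.370, above 1.77% of the open starts. These came from different sites. The 0.413 was of a site nearest the start of the neighbouring gene 1110004F10Rik, with 0.413 and 0.440. The 0.370 was of the site over the Sox6-204 start, with 0.305 and 0.370. The start shared by Sox6-202 and Sox6-210, 7749 bp inside the gene, carried the promoter value of 2.29 and 3.01. Between these, at 4283 and 5194 bp, lie starts of the noncoding transcripts Sox6-208 and Sox6-209, which shared a peak of 3.45 and 4.77, the highest of all Sox6 starts. The start 43710 bp inside the gene had no peak in either replicate, nor did those at 178944, 192656 and 192691 bp. The start at 214086 bp had a peak of 0.599 in replicate 2 alone, and that at 376431 bp had 0.348 and 0.722. Had only the 5′ end of the gene been read, the geometric mean of Sox6 would have been 0.427 in place of 2.63. That 0.427 is the value of the site nearest the start of 1110004F10Rik.

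Tbx15 showed the same displacement. Its first start, that of Tbx15-203, had no peak in replicate 1 and one of 0.904 in replicate 2, so by the 5′ end alone Tbx15 would not count as open and the count would be 4 genes. The open start was that of Tbx15-201, 13379 bp further on, with 3.77 and 5.86. The last start, of Tbx15-202 at 56129 bp, had 0.718 and 2.18. Prox1 was open at its first starts, with 1.52 and 2.58, and more weakly at the start of Prox1-201, 1315 bp inside, with 0.881 and 1.01. The 2 starts of Maf lie 698 bp apart. Replicate 1 had its higher peak at the inner one, 3.46 against 2.03, while replicate 2 had it at the outer one, 5.99 against 3.03. The Maf promoter value therefore comes from different peaks in the replicates. Mafa has a single start, and its highest peak spans chr15:75748301-75748600, centred 222 bp before that start.

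**Figure D2:**
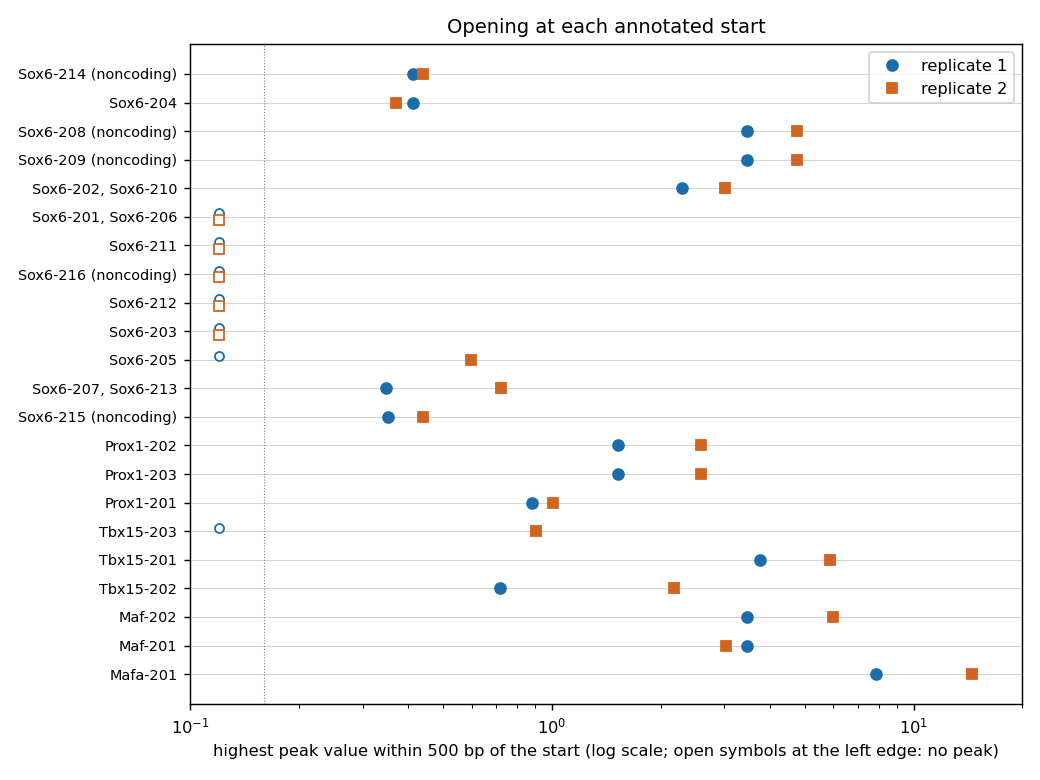
Highest peak value within 500 bp of each annotated start of the 5 genes on a log axis, with replicate 1 as circles, replicate 2 as squares and open symbols at the left edge where there was no peak. The first coding start of Sox6 has 0.413 and 0.370 and that of Tbx15 a peak in replicate 2 alone, and both genes have later starts with higher values.

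Sox6 occupies 568 kb on chromosome 7, chr7:115470872-116038796 on the minus strand, and it is the longest of the 5 genes. Its window held 44 and 52 peaks and 34 shared sites. The first 10 kb of the gene held 10 of these, and 55.7% and 48.7% of its bases were listed as open at a false discovery rate (FDR) under 0.05. The remaining 558 kb of the gene held 19 shared sites, or 3.41 per 100 kb, with 0.822% and 1.45% of bases listed. Between 4161 and 8611 bp from the first start, 8 shared sites lay close together, with 18 shared footprints, and 6 of the 8 strongest sites of the window were among them. The antisense gene Sox6os starts inside this cluster, 6817 bp from the first Sox6 start, and DNase-seq does not tell which strand a site serves. The sites nearest its start, centred 6866 and 6446 bp from the first Sox6 start, had values of 2.92 and 2.51 and of 2.91 and 2.90.

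Outside this cluster the strongest sites lay at the ends of the gene. The intergenic site at chr7:115453441-115453620, past the end of the gene, had 3.53 and 4.28 and exceeded 94.5% of the shared sites away from starts. Its printed sequence holds the CTCF core, here read as GCCACCTCGTGG, inside a footprint of both replicates. A site of 3.82 and 3.94 lay 1589 bp before the first start, inside the neighbouring gene 1110004F10Rik, which starts 601 bp from Sox6 and runs the other way. The site of 2.00 and 3.58 at chr7:116033021-116033180, inside the open cluster, holds a CTCF core too, CCACAAGAGGGC in a shared footprint. In the last part of the gene, 2 exon sites were higher in replicate 2, at chr7:115472921-115473120 with 1.20 and 3.33 and at chr7:115477001-115477180 with 1.21 and 2.88. Introns of the long middle part held low values. The intron site 368976 bp from the first start, for example, had 0.745 and 1.56.

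Prox1, at chr1:190118035-190170714 on the minus strand, differed most between the libraries in how much was called. Its window held 9 and 22 peaks, all 9 sites of replicate 1 were shared, and 13 sites appeared in replicate 2 alone. Listed bases made up 1.64% and 3.97% of the window. The sites of replicate 2 alone had values from 0.264 to 1.31. Apart from the start, the strongest shared site lay in an exon at chr1:190161841-190162020, with 1.52 and 1.09. The intron site whose sequence is printed had 0.778 and 1.03, with 1 shared footprint and no match to any of the 15 motifs searched. A pair of weak sites, 0.805 and 0.499 and then 0.691 and 0.470, lay 4253 and 4631 bp before the first start, inside the antisense gene Prox1os. Their higher value was in replicate 1, against the general direction.

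Tbx15, at chr3:99240381-99354259 on the plus strand, had 14 and 23 peaks, 13 shared sites and 23 shared footprints. Around the open start of Tbx15-201 lay a run of 5 shared sites, centred from 12869 to 16647 bp past the first start. The site just before it, at chr3:99253121-99253380, had 2.14 and 5.49, nearly the value of the start itself in replicate 2. A group of intron sites followed about 50 kb into the gene. The first, at chr3:99290401-99290600, had 2.15 and 2.91, and its printed sequence holds CAGCTG, the E-box letters bound by myogenic factors, at 2 places that lie in shared footprints. The 3 sites after it were much higher in replicate 2, with 0.625 and 1.84, 0.827 and 2.82, and 0.718 and 2.18, the last at the start of Tbx15-202. Their log2 ratios exceeded those of 98.8%, 99.6% and 99.8% of the sites of their class. A site inside Wars2, 6201 bp before the first Tbx15 start, had 2.02 and 2.01 with 3 shared footprints. One of these holds CATTCC, the MCAT element read on the other strand, at chr3:99234161-99234166, and AACAAT, the SOX consensus, at chr3:99234170-99234175.

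Maf, at chr8:115682942-115707794 on the minus strand, had 11 and 18 peaks and 9 shared sites, 6 of them within 1821 bp of the first start. The highest site of the window was not at a start. It lay 1821 bp before the first start, at chr8:115709521-115709700, had values of 4.56 and 3.80, and exceeded 95.3% of the shared sites away from starts. Of the printed sequence, 54 bases lay in shared footprints, and the SOX letters AACAAT found there lay outside them. The site centred 211 bp before the first start had 2.03 and 5.99, a log2 ratio of 1.56 that exceeded those of 99.7% of start sites. Exon sites at 1199 and 1804 bp had 1.53 and 1.36 and then 1.87 and 2.08. The remaining 14.9 kb of the gene held no shared site. The antisense gene Gm15655 starts 2716 bp inside Maf.

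Mafa is a short gene of 2739 bp at chr15:75745490-75748228 on the minus strand, and its window lies among other genes, with the start of Rhpn1 and much of Zc3h3 inside it. The window held 26 and 20 peaks, 14 shared sites and 41 shared footprints, or 13.6 sites and 39.9 footprints per 100 kb. Besides the start, the strongest site lay 9862 bp before it, at chr15:75757961-75758220 inside Zc3h3, with 3.55 and 9.19. It exceeded 97.9% of the shared sites away from starts. An exon site of Mafa at chr15:75746901-75747100 had 3.69 and 5.28. The intergenic site past the end of the gene whose sequence is printed had 3.89 and 4.26, and its central footprint holds a CTCF core, GCCTCCTAGTGG. The RUNX letters TGTGGT there lay only in part in bases protected in both replicates. Another CTCF core, CCACCAGGGGGC, lay in a shared footprint of the start site, 313 bp before the start. CAGCTG, 236 bp before the start, overlapped the edge of a shared footprint of the start site and reached past its end. At the start of Rhpn1, 44048 bp past the start of Mafa, the site had 3.55 and 5.06.

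In the Mafa window replicate 1 had the larger open area, with 11 sites of its own against 6 in replicate 2, although 12 of the 14 shared sites were higher in replicate 2. Of the 11, 10 lay between 1562 and 9162 bp before the start, with low values from 0.174 to 0.430. Each of these 10 also overlapped the stricter peak set of replicate 1. In the 10 kb before the start, 58.4% of bases were listed in replicate 1 and 14.5% in replicate 2. Replicate 1 thus had a broad stretch of weak opening between the Mafa start and the site inside Zc3h3, which replicate 2 lacked at the FDR of 0.05. Over the whole window the listed share was 10.4% and 6.75%, and in the windows of Sox6, Prox1, Tbx15 and Maf it was higher in replicate 2.

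Set against the windows of all protein-coding genes, 4 of the 5 genes were ordinary in how much was open. The median window held 5.92 shared sites per 100 kb. Sox6 had 5.09, Prox1 5.89, Tbx15 6.08 and Maf 7.21, which exceeded 43.5%, 49.7%, 51.0% and 58.7% of the windows. The 13.6 of Mafa exceeded 86.7%. By the mean listed share Mafa exceeded 94.9% of windows and Maf 70.0%, while Sox6, Prox1 and Tbx15 lay at 42.1%, 52.9% and 45.2%. Shared footprints ran below the median window of 12.2 per 100 kb at Sox6, with 6.89, at Prox1, with 6.55, and at Tbx15, with 10.8, and above it at Maf, with 14.4, and at Mafa. A window that holds other genes' starts or bodies counts their sites too. Of the 14 shared sites of Mafa, 6 lay inside another gene outside exons and 1 at another gene's start. The exon site at chr15:75714981-75715160, with 2.88 and 2.65, also lay inside another gene, Rhpn1.

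**Figure D3:**
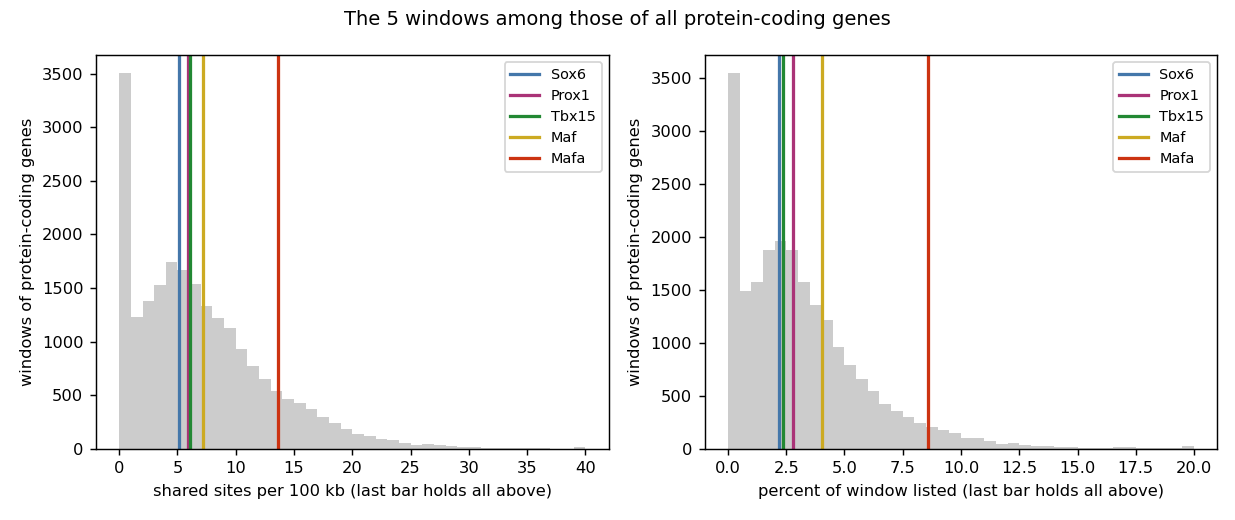
Number of protein-coding gene windows (grey bars) by shared sites per 100 kb on the left and by percent of bases listed, mean of both replicates, on the right, with a coloured line for each of the 5 genes. Sox6, Prox1, Tbx15 and Maf lie between 5.09 and 7.21 sites per 100 kb, close to the median of 5.92, and Mafa lies at 13.6.

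The 79 shared sites had a median geometric mean of 1.17, where all 94042 shared sites of the genome had 1.04. By place, 15 lay within 500 bp of a start of the gene itself and 5 at a start of another gene. Of the rest, 10 lay in exons of any gene, 26 in introns of the gene, 12 inside another gene outside exons and 11 between genes. Thus 20 lay at a start of any gene, where 26.1% of all shared sites did. Of the 79, 63 were higher in replicate 2, a larger share than the 64.9% of all shared sites. Their median log2 ratio of replicate 2 to replicate 1 was 0.430, against 0.235 over all shared sites. The reason for this lean was not tested. The stricter peak set of both replicates held 49 of the 79, where it held 64.4% of all. Sites seen in a single library were weak, with a median of 0.343 in replicate 1 and 0.519 in replicate 2. Ratios of replicate 2 to replicate 1 lay between the 5th and 95th percentiles of their class for 69 of the 79. The 10 outside were all on the side of replicate 2, 4 at Tbx15, 3 at Sox6, 2 at Mafa and 1 at Maf, and none at Prox1. By construction 5% of all sites of a class lie beyond each of the 2 bounds. That all 10 lay beyond the upper bound was seen only afterwards and restates the lean to replicate 2. Sites around the same gene are not independent, so no excess of outlying ratios was established.

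**Figure D4:**
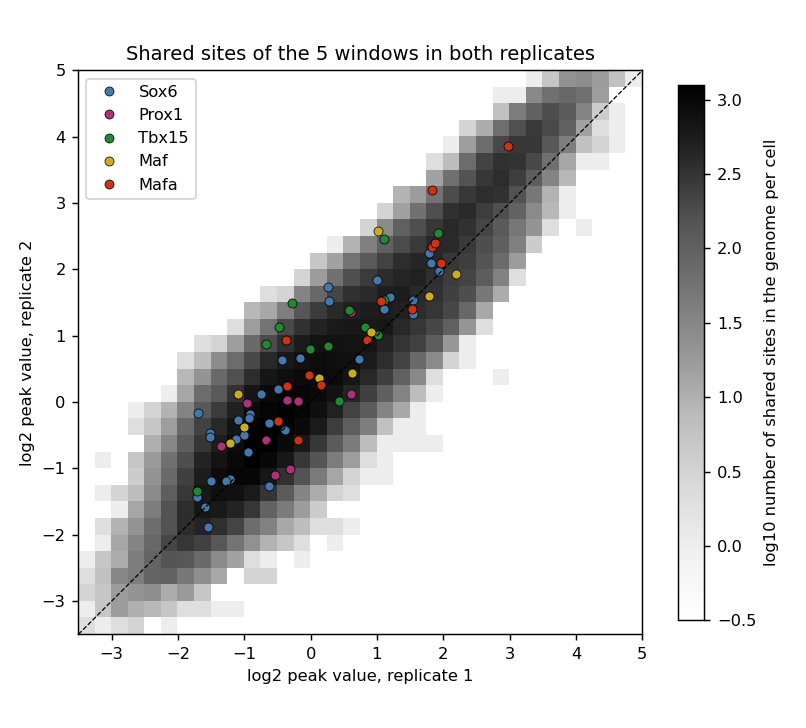
Log2 peak value in replicate 1 against replicate 2 for the 79 shared sites, coloured by gene, over all 94042 shared sites of the genome in grey (darker cells hold more sites, log10 scale), with the line of equal values dashed. Most points follow the grey band, 63 of the 79 lie above the line, and the Mafa promoter is the highest.

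Footprints give a view of where proteins may have sat on the DNA. Of the 79 shared sites 58 overlapped a shared footprint, where 76.4% of all shared sites did. The median width was 21 bp among the 138 footprints and 21 bp in the genome. The letters of 15 consensus motifs were searched on both strands in the shared footprints, each widened by 5 bp, and in 150 bp around the middle of each site. A match is a description of letters and does not show that a factor was bound. CAGCTG was in 10 of the 138 footprints, or 7.25% with an exact 95% binomial interval of 3.53% to 12.9%, which includes the 3.81% of all shared footprints. Prox1 had 2 of the 10, Tbx15 3, Maf 2, Mafa 3 and Sox6 none. Without the widening the count was 4, or 2.90%, against 2.65% of all, and in the footprints of either library alone it was 3.56% and 4.31%, against 2.80% and 3.53%. In the sites themselves it was in 22 of 79, 27.8% against 20.4%, with an interval of 18.3% to 39.1% that includes the share of all sites.

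The SOX letters AACAAT were in 3 footprints, 2.17% against 0.474%, with an interval of 0.451% to 6.22% that includes the 0.474%. They were in 7 sites, 8.86% against 3.26%, with an interval of 3.64% to 17.4% that lies above the 3.26%. Such intervals treat sites as independent draws, which sites around the same gene are not. They were also not adjusted for the number of motifs searched, so an enrichment of SOX letters was not established. Of the 3 footprints, 2 were in Sox6 itself, 368976 and 548974 bp from its first start by the centre of their sites, and both matches reached past the footprint's edge. The other was the site before Tbx15 printed above, where the letters lay wholly inside. The MCAT letters GGAATG, bound by TEAD factors, were in 4 footprints, 2.90% against 1.52%, and in 10 sites, 12.7% against 8.85%. The CTCF core was in 5 footprints, 3.62% against 2.45%, with 2 at Sox6 and 3 at Mafa. The SP/KLF letters CCGCCC were in 12 footprints, 8.70% against 11.3%, and at 8 of the 20 start sites, where 47.0% of all start sites hold them. TGTGGT was in 1 footprint.

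Some letters were scarce. The AP-1 letters TGANTCA were in 1 of the 79 sites, 1.27% against 5.42%, and in no footprint. The NFAT letters GGAAAA were in 3 sites, 3.80% against 10.4%, and in no footprint, where 1.77% of all shared footprints hold them. The exact interval for a count of 0 among 138 reaches 2.64%, which includes the share of all footprints for both. The large Maf element (MARE), the T-box letters AGGTGTGA, the MEF3 letters TCAGGTTTC, the ERR letters TCAAGGTCA, the NFI palindrome, MEF2 and CArG were in no member footprint either, and each is rare, in at most 0.0932% of all shared footprints. In the sites the exact intervals were 0.032% to 6.85% for AP-1 and 0.790% to 10.7% for NFAT, which include the shares of all sites. The TGANTCA letters lie within the large Maf element, and sites at 1 gene share its surroundings, so the 79 sites are not independent draws.

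The relatives of these factors were next compared at their promoters. Of 10 family members, 8 were open in both replicates, where 66.0% of all protein-coding genes were. Nrl, the photoreceptor factor of the large Maf family, had no peak. The small Mafs, partners without an activation domain, were open at all 3 genes, with 14.2 and 17.1 at Mafk, 6.01 and 9.30 at Mafg and 5.93 and 7.12 at Maff. The SoxD relatives Sox13 and Sox5 differed, with 2.20 and 2.86 at Sox13 and 0.359 and 0.405 at Sox5. Tbx18 had 2.50 and 5.22, below Tbx15, and Tbx22 had 0.223 and 0.323. Prox2 had no peak.

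Of 21 other regulators of fibre type, 20 were open in both replicates, against the same 66.0%, with a median geometric mean of 5.61, where the median of all open promoters was 5.49. The highest were Esrra, an oestrogen-related receptor of oxidative metabolism, with 15.2 and 28.2, and Hdac4, a class IIa deacetylase that restrains MEF2, with 14.5 and 28.2. The lowest were Ppargc1a, the coactivator of oxidative fibres, with 0.653 and 0.822, and Esrrg, with 1.08 and 1.14. Hdac9 had a peak of 0.851 in replicate 2 alone. Mef2c, a MADS-box factor that favours slow fibres, had 2.10 and 3.77.

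Among the contractile genes that such factors regulate, 8 of 9 fast genes were open in both replicates and 4 of 8 slow genes, where 66.0% of all protein-coding genes were, and whether the lists differ was not tested. With the basic transcript set of the annotation, chosen after the data were seen, the slow count was 3. The fast genes ranged from 0.489 and 0.874 at Myh1 to 8.48 and 11.5 at Mylpf, a fast light chain. Myh4, the IIb myosin, had 0.631 and 0.874, and Myh2, the IIa myosin, had no peak at its start. Of the slow genes, Myh7, Myh7b, Tnnc1 and Tnni1 had no start peak, Tnnt1 had 1.12 and 1.83, and Atp2a2, the slow-fibre and cardiac calcium pump, had 6.97 and 9.40.

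Markers of the cells that use these factors were read in the same way, beside the 66.0% of all protein-coding genes open in both replicates. All 6 myofibre markers were open, from 2.41 and 3.62 at Ttn to 8.48 and 11.5 at Mylpf. For lymphatic endothelium, where Prox1 is a defining gene, all 5 markers had a peak in both replicates, with summed values of 4.74 and 6.50. The highest was Pdpn with 2.30 and 4.38, while Lyve1 had 0.359 and 0.358. Most were weak: Lyve1, Flt4, Tie1 and Reln exceeded only 1.40% to 6.01% of the open promoters, and Pdpn 32.9%. Of the blood endothelial markers 4 of 5 were open in both, and peaks at all 5 summed to 3.97 and 5.05, with Emcn contributing 0.310 in replicate 1 alone. For macrophages, in which Maf acts, none of 6 markers was open in both. Replicate 1 had no peak at any, replicate 2 had weak ones at 5, from 0.299 to 0.833, and Adgre1 had none in either. The 5 satellite cell markers summed to 12.9 and 17.2, and the 5 fibroblast markers to 15.7 and 24.7. Of the beta cell markers 3 of 5 were open, or 2 by the basic set. Ins2 had 1.47 and 1.89 and Pdx1 0.484 and 0.323, Ins1 had 0.223 in replicate 1 alone and Slc2a2 had no peak. The Ins2 value is the highest over the coding starts of its annotated span, chr7:142678656-142743381. Which start it belongs to was not read. Of 4 Schwann cell markers 2 were open, and Sox10 had no peak. The part of these cells in the opening at Prox1, Maf or Mafa was not tested.

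**Figure D5:**
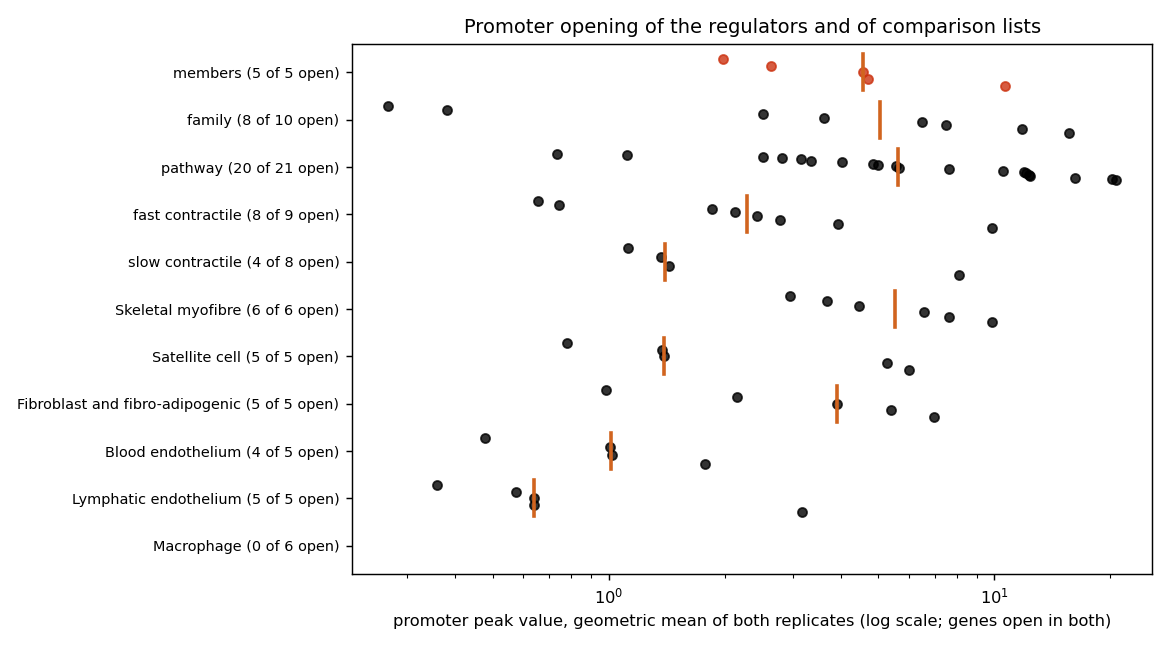
Promoter peak value, geometric mean of both replicates on a log axis, for the 5 regulators (red) and for genes of each comparison list (black), with genes open in both replicates only and a bar at each list's median. The 5 regulators run from 1.98 at Prox1 to 10.7 at Mafa, within the range of the other fibre type regulators, and no macrophage marker was open in both.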

How the data were processed

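The 5 genes and the gene and motif lists were chosen with earlier results of these data known. According to notes the authors deposited for each sample, peaks, footprints and per-position values were made by the authors for each library separately on mm10. For the aligner and both callers, names were not given in the sources used here. Peak values are a signal scaled to depth, as deposited; all values were whole multiples of 0.00544 and 0.00587, within 0.05 of a step, taken as 1 tag each. The sum over peaks was 35892488 and 44268998 tags, which is not the library depth. The per-position files give an FDR, a p-value type of number deposited by the authors, and list positions under 0.05. Footprint lines all carry a score of 0.01 as deposited, so only positions were used. The mice carry CAST alleles, and the effect of mapping them to the B6 reference was not tested.

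The wider of the 2 deposited peak sets was used. Peaks or footprints were shared when overlapping by at least 1 bp, and a site's value was its highest peak. Starts came from all coding transcripts of GENCODE M21 (GRCm38.p6). Python 3.11.15, pandas 2.3.3, numpy 2.4.6, scipy 1.17.1 and pysam 0.24.0 were used, and the code was tested on simulated data. By rule the text names the 5 regulators, their relatives, up to 4 highest and lowest genes of each list, and the start sites and 5 highest shared sites of each window. Further list genes and sites were named, and sequences beyond the highest sites printed, after their values were seen; start sites overlap exons and are not printed. Values of some list genes are not reported here. Binomial intervals are exact (Clopper-Pearson). Alternatives changed the peak set, promoter width, start set, overlap, window, FDR and replicates.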

Additional observations from a re-analysis of the deposited data

How the results depend on the processing

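The count of 5 open promoters was the same with the stricter peaks, promoters of 200 or 1000 bp, the basic transcript set and either replicate alone, and was 4 with gene 5′ ends only. The 79 shared sites became 48 with the stricter peaks and 51 in gene bodies alone, and either library alone had 100 to 133 sites. The 138 shared footprints became 77 in gene bodies alone. Of the merged stretches, 238 held a footprint of replicate 1 and 361 one of replicate 2. The mean listed share, 2.99% of bases, was 3.53% with flanks of 10 kb and 1.91% at an FDR under 0.001, and 2.67% to 3.31% in single libraries. The CAGCTG share of footprints fell from 7.25% to 2.90% when footprints were not widened, and was 3.56% to 4.31% in single libraries. The basic transcript set and the alternatives for motifs were chosen after seeing the data. Of 89 values of single genes under alternatives, 67 stayed within the replicate spread or 1.5 times the count and 22 moved. These labels had no category for a reversal. Tbx15 at the gene 5′ end had no promoter value and is not among the 89. For promoters, each replicate alone was set against a spread computed from both, so staying within it says little. No paired analysis was possible because the series has a single group. Sites seen in a single library had median values of 0.343 and 0.519, and the part of depth in this was not tested.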
